A study of Homo sapiens with 9 samples.

Results

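The genes described here encode the human machinery that makes and uses small interfering RNAs and microRNAs (miRNAs). They are translin (TSN) and its partner translin-associated factor X (TSNAX), the Argonautes AGO1, AGO2 and AGO3, the RNase DICER1 with its partner TARBP2, the nuclear RNase DROSHA with its partner DGCR8, and the export receptor XPO5. They were chosen by name, as every probe whose gene symbol in the platform annotation is a member of this set, and they are 10 of the 20046 genes and 17 of the 47323 probes on the array. TSN led to the choice of the set because its signal was higher with MELK siRNA, so the members' values for MELK siRNA against control siRNA are given below as a description, with no p-value. Gene expression was measured by Illumina bead arrays in bulk RNA of PC3, an established human prostate cancer cell line, 48 h after transfection with 50 nM siRNA. The groups were MELK siRNA, a pool of siRNAs against a protein kinase (3 arrays), UBE2C siRNA, a pool of the same type and supplier against a ubiquitin-conjugating enzyme (3 arrays), and a negative control siRNA from another supplier (3 arrays). All 9 arrays, controls included, therefore come from cells that carried transfected siRNA, and cells without siRNA were not analysed here. A difference from control that both knockdowns share cannot be told apart from a difference between siRNA types. The labels do not say whether arrays of a group came from separate cultures, so every p-value reflects only how far these arrays differ among themselves, which can be purely technical variation.

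In RNA interference, a short double-stranded RNA is loaded into an Argonaute, 1 strand is discarded, and the strand that stays guides the protein to matching transcripts. MiRNAs reach this step through several enzymes: DROSHA with DGCR8 cuts the primary transcript in the nucleus, XPO5 carries the hairpin out, and DICER1 with TARBP2 cuts it to its final length. Transfected siRNAs enter at the loading step and do not need DROSHA or XPO5. AGO2 is the Argonaute that cleaves matched targets efficiently in human cells. Translin and TSNAX together form an RNase that helps to remove the discarded strand from AGO2, and translin on its own is known as a protein that binds DNA and RNA.

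The array hybridized with UBE2C siRNA replicate 1 stood apart from the rest. Across probes, which are not independent of each other, Pearson's r of its log2 values was 0.848 to 0.877 against the remaining arrays, and among those it was 0.981 to 0.990. On that array 8 of the 10 members lay outside the range of the other 8 arrays, and so did 76.7% of all genes tested. The reported fit therefore leaves this array out, and the UBE2C siRNA results are given with and without it. Both targeted transcripts followed their labels in the 8-array fit: the log2 fold change was -1.09 (SE 0.09) for MELK with MELK siRNA and -1.31 (SE 0.08) for UBE2C with UBE2C siRNA. Each array had 16559 to 18661 probes above background, and precision is limited by how few arrays there were. The epithelial markers KRT8, KRT19 and EPCAM (KRT18 on 8 arrays) and the PC3 markers VIM and CD44 were above background on 9 of 9 arrays, while the prostate luminal markers KLK3 and KLK2, the leukocyte markers PTPRC and CD3E and the endothelial markers VWF and CDH5 were above it on 0. TMPRSS2, STEAP2 and PECAM1, of the luminal and endothelial lists, were above it on 9 of 9 arrays at up to 2.56 times background, and CD14 was on 8. Of the fibroblast list COL1A1 was above it on 6 arrays, PDGFRA on 3, COL1A2 on 2 and DCN on 0, at up to 1.44 times background.

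The promoters of 4 members are shown to place the translin complex pair, with TSN, which led to the set, and the Microprocessor pair, which cuts the primary miRNA transcripts. The sequences are from RefSeq (GRCh38.p14) and end at the base before the listed transcript start. Capitals mark matches on either strand to a CCAAT box, spelled as named, an ETS site (CCGGAAG), an E-box (CACGTG) or the promoter element called the GC box (GGGCGG).
TSN, chr2:121755401-121755650, plus strand: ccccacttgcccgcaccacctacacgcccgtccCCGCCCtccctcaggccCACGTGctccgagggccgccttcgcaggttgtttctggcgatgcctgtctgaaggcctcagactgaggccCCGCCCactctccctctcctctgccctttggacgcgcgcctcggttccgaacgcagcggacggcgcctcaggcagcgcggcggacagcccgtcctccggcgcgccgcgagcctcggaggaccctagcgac
TSNAX, chr1:231528419-231528668, plus strand: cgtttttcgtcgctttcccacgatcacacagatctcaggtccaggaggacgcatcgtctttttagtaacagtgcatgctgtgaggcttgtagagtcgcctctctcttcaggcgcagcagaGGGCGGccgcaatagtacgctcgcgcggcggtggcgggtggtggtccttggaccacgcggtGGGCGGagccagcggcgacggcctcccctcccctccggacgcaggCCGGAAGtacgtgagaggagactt
DROSHA, chr5:31532094-31532293, minus strand: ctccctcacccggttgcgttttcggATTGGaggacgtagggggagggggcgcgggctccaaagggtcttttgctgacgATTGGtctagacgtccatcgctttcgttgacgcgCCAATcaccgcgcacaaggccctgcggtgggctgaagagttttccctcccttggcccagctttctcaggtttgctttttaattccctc
DGCR8, chr22:20079991-20080240, plus strand: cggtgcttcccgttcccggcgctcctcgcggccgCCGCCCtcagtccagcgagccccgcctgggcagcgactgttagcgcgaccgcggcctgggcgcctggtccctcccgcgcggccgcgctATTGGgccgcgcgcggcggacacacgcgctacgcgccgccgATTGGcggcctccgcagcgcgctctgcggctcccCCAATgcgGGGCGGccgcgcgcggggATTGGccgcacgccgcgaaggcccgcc

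The windows of the translin complex genes held 2 GC boxes each, TSN with an E-box 200 bases before the start and TSNAX with an ETS site 24 bases before it. Of 35116 windows of 250 bases before a listed start, 42.6% held a GC box, 6.34% an E-box and 8.52% an ETS site. CCAAT boxes were frequent in the Microprocessor genes and in TARBP2: the windows of DROSHA and TARBP2 held 3 and that of DGCR8 held 4. At least 3 were held by 2.93% of all windows and at least 1 by 32.0%. The windows of TSN, TSNAX, AGO3 and XPO5 held 0. TATA boxes (TATAAA) and cyclic AMP response elements (TGACGTCA) were searched too and had 0 matches in the windows of the 9 members that RefSeq's table lists, while 10.7% and 1.65% of all windows held them. DICER1 and TARBP2 have several listed starts, of which the first in the table was read. These matches describe the letters and were not tested as binding sites.

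Translin was the member with the largest difference in any comparison with control. Its probe (ILMN_1768913, the only TSN probe on the array) gave normalized log2 signals of 6.31, 5.98 and 6.19 with MELK siRNA, against 5.05, 5.32 and 4.91 with control siRNA. All 3 MELK siRNA arrays lay above all 3 controls. This is a log2 fold change of 1.07 (SE 0.24), or a 2.10-fold higher signal, with rank 4 from the top among the 11428 genes tested. With UBE2C siRNA the signals were 6.80 on replicate 1, 5.21 on replicate 2 and 5.99 on replicate 3. On these normalized values replicate 1 lay above every other array, replicate 3 lay among the MELK siRNA arrays, and replicate 2 lay among the controls. Over replicates 2 and 3, TSN averaged 5.60 ± 0.55 with UBE2C siRNA (SD, n = 2) and 5.09 ± 0.21 with control siRNA (SD, n = 3). The log2 fold change of 0.51 (SE 0.27, 95% interval -0.07 to 1.09) did not pass the threshold in the limma fit (adjusted p = 0.281). It was 0.91 with all 9 arrays (adjusted p = 0.393), 0.90 without UBE2C siRNA replicate 2 and 0.12 without replicate 3. TSN was 0.56 higher on the log2 scale with MELK siRNA than with UBE2C siRNA (SE 0.27, limma adjusted p = 0.937), and with all 9 arrays that difference was 0.16.

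The TSN probe was dim, which bears on the size of these values. Before background correction its intensities were 169, 154 and 162 with MELK siRNA and 117, 130 and 114 with control siRNA, where the background of the arrays was 97.7 to 102. With UBE2C siRNA replicates 1 to 3 they were 164, 121 and 153.5. Replicate 1, the departing array, was thus below MELK siRNA replicate 1 before correction and above it only after normalization. The intensity averaged 1.60 times background with MELK siRNA and 1.21 times with control siRNA. It was above background on all 9 arrays. In the authors' processed values, which keep the background, the log2 fold change with MELK siRNA was 0.39 and that with UBE2C siRNA was 0.17.

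Translin's partner TSNAX is read by a pair of probes, and they gave different pictures. The tested probe (ILMN_1713668, the brighter of the pair) gave 6.87, 8.08 and 8.59 with MELK siRNA, 4.95, 8.65 and 8.85 with UBE2C siRNA replicates 1 to 3, and 8.20, 7.10 and 8.96 with control siRNA. Arrays of 1 group thus differed by more than the group means, and the value of 4.95 was not above background. The other probe (ILMN_2211672) was steadier, with 7.09, 7.03 and 6.42 with MELK siRNA, 8.06, 7.01 and 7.10 with UBE2C siRNA, and 6.24, 6.70 and 6.15 with control siRNA. On the tested probe the log2 fold change was -0.24 (SE 0.64) with MELK siRNA and 0.66 (SE 0.72, 95% interval -1.15 to 2.47, limma adjusted p = 0.655) with UBE2C siRNA. With all 9 arrays the UBE2C siRNA value was -0.60. On the other probe the difference from control was 0.48 (SE 0.21) with MELK siRNA and 0.70 (SE 0.23) with UBE2C siRNA, in a fit of all kept probes. For UBE2C siRNA replicates 2 and 3 lay above all controls there, and the difference was 1.03 with all 9 arrays. On the tested probe a change in either direction was not detectable at its precision, while the steadier probe was higher with UBE2C siRNA. TSNAX passed the threshold with UBE2C siRNA in 0 of the 21 alternative settings, with a lowest limma adjusted p of 0.0569. Most of these settings read the tested probe, so the count says little about the steadier one. RefSeq also lists a readthrough gene of TSNAX and its neighbour DISC1, and whether a TSNAX probe reads it was not tested.

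Among the Argonautes, AGO2 was lower with each knockdown. The probe (ILMN_1695719) gave 9.93, 9.63 and 9.71 with MELK siRNA, 10.32, 9.64 and 9.85 with UBE2C siRNA replicates 1 to 3, and 10.26, 10.12 and 10.46 with control siRNA. The MELK siRNA arrays and UBE2C siRNA replicates 2 and 3 lay below all controls, and UBE2C siRNA replicate 1 lay among them. AGO2 averaged 9.76 ± 0.16 with MELK siRNA (SD, n = 3), 9.75 ± 0.14 with UBE2C siRNA (SD, n = 2) and 10.28 ± 0.17 with control siRNA (SD, n = 3). With MELK siRNA the log2 fold change was -0.53 (SE 0.11), which left 69.4% of the control signal. With UBE2C siRNA it was -0.54 (SE 0.12, 95% interval -0.80 to -0.28), which left 68.9%, and this fall passed the threshold in the limma fit of 8 arrays (adjusted p = 0.0242). Both comparisons use the same control arrays, so they do not count as independent. Between MELK siRNA and UBE2C siRNA the difference was 0.01 (95% interval -0.25 to 0.27, limma adjusted p = 0.992). In bulk RNA, fewer cells with the transcript and less of it per cell cannot be told apart.

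The AGO2 call with UBE2C siRNA rests on few arrays. Adding UBE2C siRNA replicate 1 moved the value to -0.35 (limma adjusted p = 0.473). The call was also lost without UBE2C siRNA replicate 2 (-0.44, adjusted p = 0.279), without replicate 3 (-0.64, adjusted p = 0.117), without limma's trended prior (adjusted p = 0.131), with median scaling (-0.49, adjusted p = 0.175) and with the filter on detection p alone (adjusted p = 0.0787). The sign was negative in all 21 alternatives for each knockdown. Many of these could not turn it, because they leave the AGO2 value of the reported fit unchanged, so nothing is read from it.

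AGO1 and AGO3, the other Argonautes tested, did not pass the threshold. AGO1 (ILMN_1671326) gave 8.30, 8.26 and 7.998 with MELK siRNA, 8.82, 8.03 and 8.13 with UBE2C siRNA, and 7.74, 8.63 and 8.20 with control siRNA, where the controls alone spanned nearly the whole range. Its log2 fold change was -0.01 (SE 0.18) with MELK siRNA and -0.11 (95% interval -0.52 to 0.31, limma adjusted p = 0.793) with UBE2C siRNA. AGO3 (ILMN_1761049) gave 6.11, 5.25 and 5.94 with MELK siRNA, 6.40, 5.89 and 5.54 with UBE2C siRNA, and 5.75, 5.72 and 5.68 with control siRNA. Its log2 fold change was 0.05 (SE 0.24) with MELK siRNA and -0.00 (95% interval -0.57 to 0.56, limma adjusted p = 0.995) with UBE2C siRNA. On this AGO3 probe the controls were closely spaced, and both knockdown groups spread to either side of them. The other kept AGO3 probe (ILMN_1809751), above background on 4 of 9 arrays, had controls from 4.66 to 5.59. It differed from control by -0.15 with MELK siRNA and 0.13 with UBE2C siRNA. With all 9 arrays the UBE2C siRNA values of the tested probes turned positive, to 0.14 for AGO1 and 0.23 for AGO3. The difference between the AGO2 value and those of AGO1 and AGO3 was not tested.

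**Figure D1:**
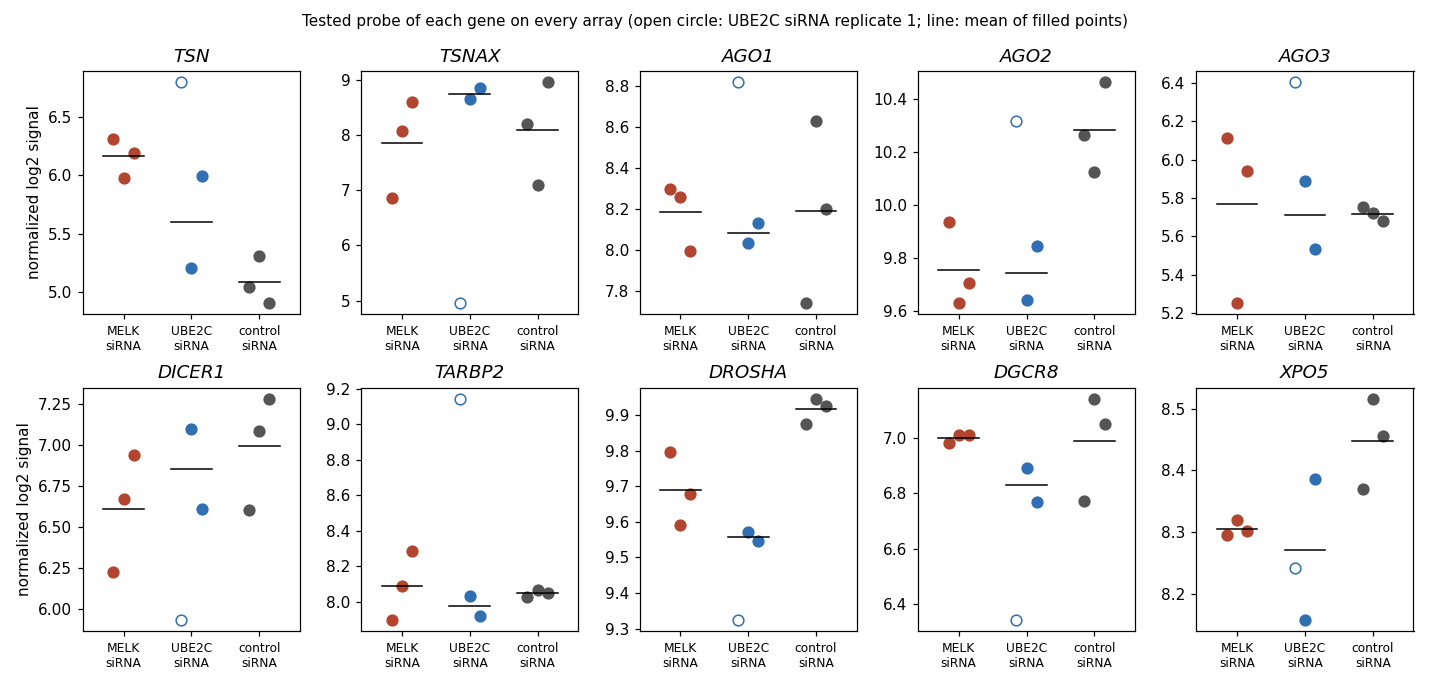
Normalized log2 signal (y axis, own scale per gene) of the tested probe of each of the 10 genes on every array, for MELK siRNA, UBE2C siRNA and control siRNA (x axis). Filled points are the 8 arrays of the reported fit, the open circle is UBE2C siRNA replicate 1, and lines are means of the filled points; TSN lies higher with MELK siRNA than in controls (5.98 to 6.31 against 4.91 to 5.32) and AGO2 lower (9.63 to 9.93 against 10.12 to 10.46).

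Of the Microprocessor genes, which encode the enzyme that cuts primary miRNA transcripts, neither passed the threshold with UBE2C siRNA. DROSHA (ILMN_1790410) gave 9.80, 9.59 and 9.68 with MELK siRNA, 9.32, 9.57 and 9.55 with UBE2C siRNA, and 9.88, 9.95 and 9.93 with control siRNA. All 3 MELK siRNA arrays and UBE2C siRNA replicates 2 and 3 lay below all 3 controls. Replicate 1 did too, but on that array 76.7% of all genes tested lay outside the range of the others. With MELK siRNA the log2 fold change was -0.23 (SE 0.09). With UBE2C siRNA it was -0.36 (SE 0.10, 95% interval -0.58 to -0.14), and it did not pass the threshold (limma adjusted p = 0.0565). It was -0.44 when all 9 arrays were fitted (adjusted p = 0.353). It did pass with array weights (adjusted p = 0.0203), with only probes detected on all 9 arrays (adjusted p = 0.0419) and without MELK siRNA replicate 1 (adjusted p = 0.0459). A second DROSHA probe (ILMN_2152095) was not well above background on any MELK siRNA array or on 2 of 3 controls, and averaging it with the first gave -0.44 with MELK siRNA and -0.10 with UBE2C siRNA.

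DGCR8 (ILMN_1694223), the RNA-binding partner of DROSHA, gave 6.98, 7.01 and 7.01 with MELK siRNA, 6.34, 6.89 and 6.77 with UBE2C siRNA, and 6.77, 7.14 and 7.05 with control siRNA. The MELK siRNA arrays lay within the range of the controls. DGCR8 differed by 0.01 (SE 0.15) on the log2 scale with MELK siRNA and -0.16 (95% interval -0.52 to 0.20, limma adjusted p = 0.632) with UBE2C siRNA. The UBE2C siRNA value of DGCR8 was -0.32 with all 9 arrays. XPO5 (ILMN_1759495), which exports the hairpins, gave 8.29, 8.32 and 8.30 with MELK siRNA, 8.24, 8.16 and 8.39 with UBE2C siRNA, and 8.37, 8.52 and 8.46 with control siRNA. Its MELK siRNA arrays lay just below all controls, with a log2 fold change of -0.14 (SE 0.11). With UBE2C siRNA it was -0.18 (95% interval -0.44 to 0.09, limma adjusted p = 0.441).

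DICER1 has 4 probes, more than any other member, and 2 of them failed the filter on dim probes. The tested probe (ILMN_1772692) gave 6.23, 6.67 and 6.94 with MELK siRNA, 5.93, 7.10 and 6.61 with UBE2C siRNA, and 6.61, 7.09 and 7.28 with control siRNA. The groups overlapped, and the log2 fold change was -0.38 (SE 0.21) with MELK siRNA and -0.14 (95% interval -0.65 to 0.37, limma adjusted p = 0.779) with UBE2C siRNA. The second kept probe (ILMN_2349831), above background on 2 of 3 arrays of each group, gave -0.41 and -0.74. With all 9 arrays the UBE2C siRNA values were -0.45 on the tested probe and -0.19 on the second.

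TARBP2, which holds double-stranded RNA for DICER1, was close to control on its tested probe. That probe (ILMN_1729767) gave 7.90, 8.09 and 8.28 with MELK siRNA, 9.15, 8.03 and 7.92 with UBE2C siRNA, and 8.03, 8.07 and 8.05 with control siRNA. On the log2 scale the tested probe differed from control by 0.04 (SE 0.13) with MELK siRNA and -0.07 (95% interval -0.37 to 0.23, limma adjusted p = 0.808) with UBE2C siRNA. The second TARBP2 probe (ILMN_2310253), assigned to another RefSeq transcript, gave 7.90, 8.04 and 8.45 with MELK siRNA, 4.23, 8.47 and 8.67 with UBE2C siRNA, and 8.41, 7.999 and 7.74 with control siRNA. Its log2 difference from control was 0.08 with MELK siRNA and 0.52 with UBE2C siRNA, where replicates 2 and 3 lay above all controls, and the UBE2C siRNA value was -0.93 with all 9 arrays. On UBE2C siRNA replicate 1 the tested probe thus had its highest value of all arrays, and the second probe was not above background.

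Probe pairs of a gene show how far that array departs. For TARBP2 the difference between its probes was -0.75 to 0.31 log2 units on the other 8 arrays and 4.91 on UBE2C siRNA replicate 1. For TSNAX it was -0.22 to 2.82 on the other arrays and -3.11 on that array, and for DICER1 it was 0.62 to 2.26 and -0.53. For AGO3 and DROSHA, too, the value on that array lay outside the range of the others. The departure of 12 of the 15 kept member probes on this array went up for 7 and down for 5.

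**Figure D2:**
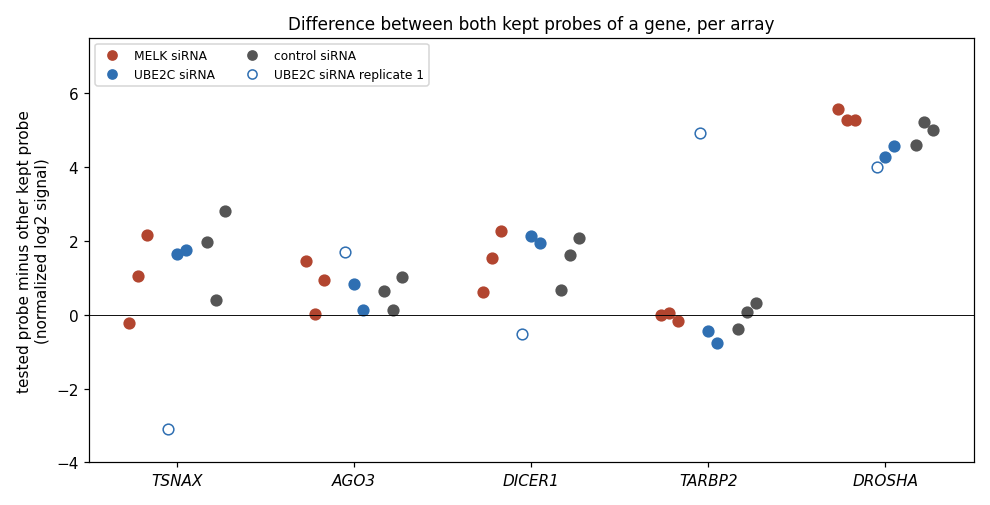
Difference in normalized log2 signal between the tested probe and the other kept probe (y axis) on each array, for the 5 members with 2 kept probes (x axis). Points are arrays of MELK siRNA, UBE2C siRNA and control siRNA, with UBE2C siRNA replicate 1 as an open circle, which lies at 4.91 for TARBP2 and -3.11 for TSNAX; only the change of a difference between arrays can be read, not its level.

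Few members were called. With UBE2C siRNA, 1 of 10 members was called (AGO2, lower), where the 8-array limma fit at an adjusted p of 0.05 called 4.46% of all genes tested and 2.78% as lower, 1.68% as higher. With all 9 arrays 0 members were called, beside 0.00875% of all genes. The median log2 fold change of the members was -0.12, against -0.02 over all genes. On the tested probes the arrays of both groups did not overlap for 2 of 10 members (AGO2 and DROSHA), both lower. This held for 38.9% of all genes in either direction and for 21.6% as lower. Among the second kept probes, those of TSNAX (0.70) and TARBP2 (0.52) did not overlap as higher, and that of DICER1 (-0.74) as lower. Those of AGO3 and DROSHA overlapped. With MELK siRNA the rise of TSN led to the set, so the members' count is a description from which nothing is read: TSN (higher) and AGO2 (lower), 2 of 10, were past the threshold, beside 5.51% of all genes (2.29% higher, 3.22% lower). Neither was past it without MELK siRNA replicate 2 or without replicate 3. On the tested probes the arrays did not overlap for 4 of 10 members (TSN higher, AGO2, DROSHA and XPO5 lower), beside 25.7% of all genes (13.8% higher, 11.9% lower). Of the second kept probes only the dim one of DROSHA did not overlap (-0.66). With median scaling, 1 member was called with MELK siRNA and 0 with UBE2C siRNA. Median scaling also changed the split of the calls over all genes: 133 were higher and 24 lower with MELK siRNA, against 262 and 368 after quantile normalization, and 7 were higher and 2 lower with UBE2C siRNA, against 192 and 318.

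Between the knockdowns, whose siRNA pools are of the same type, 0 of 10 members were called by limma, as were 0.0175% of all genes, namely 1 higher and 1 lower (0.00875% each). With all 9 arrays 0 members and 0.00875% of all genes were called. At an unadjusted p under 0.05 there were 581 genes. The median of the members was 0.08, against 0.03 over all genes. The largest differences were those of TSNAX (-0.90, 95% interval -2.71 to 0.91) and TSN (0.56, 95% interval -0.02 to 1.14). On the tested probes the arrays did not overlap for TSNAX, DROSHA (0.13, 95% interval -0.09 to 0.35) and DGCR8 (0.17, 95% interval -0.19 to 0.53), which is 3 of 10 members, where this held for 23.5% of all genes (14.2% higher, 9.22% lower). Among the second kept probes, those of DROSHA (-0.82, close to background) and TARBP2 (-0.44) did not overlap, both lower with MELK siRNA. Those of TSNAX, AGO3 and DICER1 overlapped. The DROSHA values thus differed in sign between its probes, but the second probe could not be told from background with MELK siRNA. It passed the filter only through control siRNA replicate 1 and UBE2C siRNA replicates 1 and 2. A change of DROSHA in opposite directions is therefore not read from the value of -0.82. The intervals of AGO1 (-0.31 to 0.52), TARBP2 (-0.18 to 0.41) and XPO5 (-0.23 to 0.30) covered 0.

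**Figure D3:**
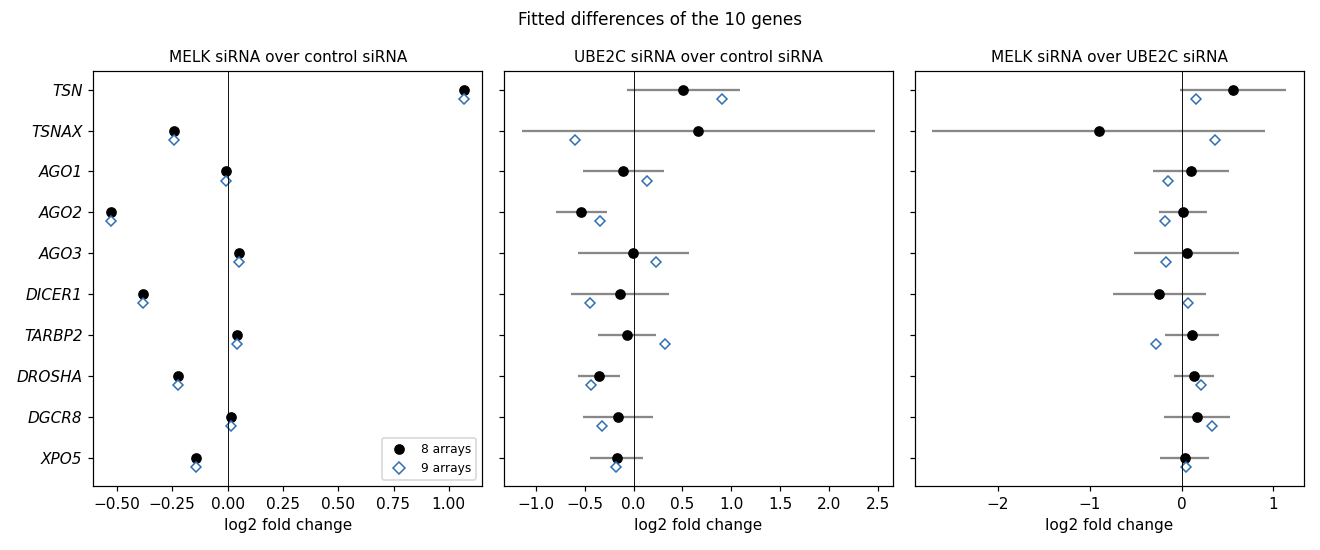
Log2 fold change (x axis) of the 10 genes (y axis) for MELK siRNA over control siRNA, UBE2C siRNA over control siRNA and MELK siRNA over UBE2C siRNA. Black points are the 8-array fit with 95% intervals as grey lines (not drawn for MELK siRNA over control siRNA, which led to the set), and open diamonds are all 9 arrays; AGO2 lies at -0.53 and -0.54 against control in the 8-array fit and at 0.01 between the knockdowns.

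The genes whose pattern over the 8 arrays was most like that of TSN were LSM6, a subunit of the ring that binds uridine tails of RNA (Pearson r = 0.976), the TARDBP pseudogene TARDBPP3 (0.971), the ribosome assembly gene TMA16 (0.966), the mitochondrial tRNA methyltransferase TRMT61B (0.963) and PRORP, the protein that cuts mitochondrial tRNA precursors (0.961). These correlations describe 8 arrays that share the same groups, out of 11428 genes, of which 36 had r over 0.9. Over 9 arrays they were 0.859, 0.941, 0.961, 0.924 and 0.974 in the same order. With MELK siRNA the difference from control on the log2 scale was 0.51 for LSM6, 0.29 for TARDBPP3, 0.95 for TMA16, 0.55 for TRMT61B and 0.30 for PRORP. These genes were picked by likeness to TSN over the same arrays. A rise with MELK siRNA was thus largely built into the choice and is only a description. TARDBPP3 may share sequence with its parent gene, so its signal is uncertain.

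The wider pathway was covered by 7 lists of 109 genes, of which 83 could be tested. With MELK siRNA 5 of these (6.02%) were called, all higher, where 5.51% of all genes were called. With UBE2C siRNA 4 (4.82%) were called, 1 higher and 3 lower, where 4.46% of all genes were. Both shares lie near that background, and between the knockdowns 0 of the 83 were called by limma. The fourth Argonaute, AGO4, and the PIWI genes PIWIL1 to PIWIL4 failed the filter on dim probes, as did the translin partners TSNAXIP1, C1D and DISC1. The lists are described by counts and were not tested as sets. Over all genes 2.29% were higher and 3.22% lower with MELK siRNA, and 1.68% were higher and 2.78% lower with UBE2C siRNA, and nothing particular to a list is read from its count.

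In the Dicer and loading list, 2 of 11 genes rose with MELK siRNA and 0 fell. These were PTGES3, the p23 co-chaperone of HSP90, and PRKRA, which like TARBP2 is a double-stranded RNA binding partner of DICER1. PTGES3 gave 11.42, 11.55 and 11.60 with MELK siRNA, against 11.08, 10.87 and 11.03 with control siRNA, so the groups did not overlap. Its log2 fold change was 0.53 (SE 0.08, limma adjusted p = 0.00354). With UBE2C siRNA it rose by 0.62 (SE 0.09, adjusted p = 0.00871), the only call of this list in that comparison, but UBE2C siRNA replicate 1 had 9.90, below all controls, and with all 9 arrays the value was 0.05. PRKRA gave 10.74, 10.40 and 10.47 with MELK siRNA and 10.09, 10.02 and 10.32 with control siRNA, a log2 fold change of 0.39 (SE 0.10, limma adjusted p = 0.0394). With UBE2C siRNA PRKRA gave 11.04, 10.48 and 10.49, all above the controls, with a log2 fold change of 0.34 that did not pass (adjusted p = 0.0962). Between MELK siRNA and UBE2C siRNA PRKRA differed by 0.05. The list's median was 0.09 with MELK siRNA and 0.00 with UBE2C siRNA.

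Of 18 genes of primary and precursor miRNA processing, RAN, the GTPase that drives export by XPO5, rose with MELK siRNA (0.26, SE 0.06, limma adjusted p = 0.0199), and its second probe gave 0.30. With UBE2C siRNA the tested RAN probe was at 0.14 (adjusted p = 0.238) and the second probe at 0.66. With UBE2C siRNA the scaffold attachment factors SAFB (-0.54, SE 0.12, adjusted p = 0.0202) and SAFB2 (-0.41, SE 0.10, adjusted p = 0.0323) fell, and 0 rose. SAFB gave 9.39 and 9.48 on UBE2C siRNA replicates 2 and 3, against 9.89, 10.15 and 9.89 with control siRNA. Replicate 1 was at 10.50, above all controls, and with all 9 arrays the value for SAFB was -0.19. With MELK siRNA both SAFB (adjusted p = 0.126) and SAFB2 (adjusted p = 0.0785) were at -0.28 without passing in the limma fit. The list's median was -0.05 with MELK siRNA and -0.10 with UBE2C siRNA.

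Of 14 effectors of the RNA-induced silencing complex, the LIM protein gene AJUBA rose with MELK siRNA (0.47, SE 0.11, limma adjusted p = 0.0265), although its second probe gave -0.45. With UBE2C siRNA AJUBA was at 0.22 (adjusted p = 0.313), and at -0.03 on its second probe. The RNA helicase MOV10 fell with UBE2C siRNA (-0.76, SE 0.19, adjusted p = 0.0343). MOV10 gave 6.68, 6.35 and 6.24 with UBE2C siRNA and 7.09, 7.02 and 7.06 with control siRNA, so all 3 arrays lay below the controls. With MELK siRNA it gave 7.30, 6.72 and 6.81, on either side of the controls. The list's median was 0.03 with MELK siRNA and -0.20 with UBE2C siRNA.

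Of 29 deadenylation, decapping and decay genes, the deadenylase subunit CNOT7 rose with MELK siRNA (0.40, SE 0.10, limma adjusted p = 0.0345). Its second probe gave 0.44. With UBE2C siRNA 0 genes were called, and CNOT7 was at 0.30 (adjusted p = 0.136) on the tested probe and at 0.59 on the second. Of 11 genes of double-stranded RNA sensing and uptake, 0 were called in either comparison by limma. Their medians were -0.21 with MELK siRNA and -0.28 with UBE2C siRNA, against 0.00 and -0.02 over all genes. The log2 fold change was negative for 10 of them with MELK siRNA and for 9 with UBE2C siRNA. The share of negative values over all genes was not counted. Examples, chosen after their values were seen, are the kinase EIF2AK2 (-0.34 and -0.43) and the sensor RIGI (-0.23 and -0.42). The sensor IFIH1 was at -0.02 and 0.05, and STAU2, which binds double-stranded RNA, was at 0.35 and 0.43. The pathway calls named here for MELK siRNA and for UBE2C siRNA were all lost with all 9 arrays and without the trended prior.

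**Figure D4:**
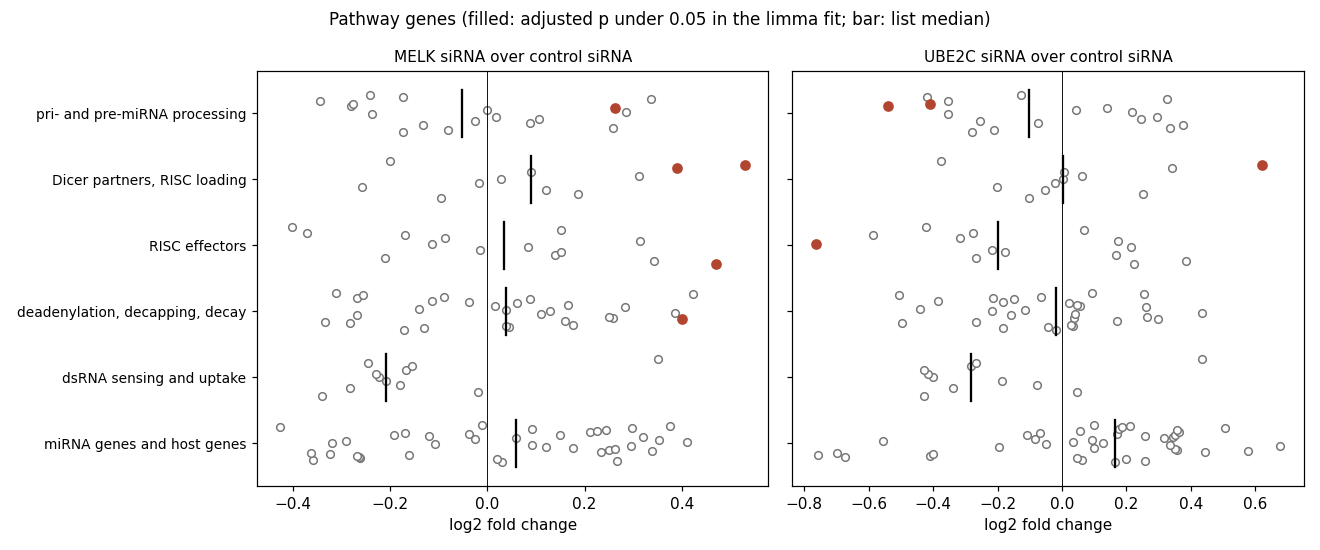
Log2 fold change (x axis) of every tested pathway gene by list (y axis), for MELK siRNA over control siRNA and UBE2C siRNA over control siRNA in the 8-array fit. Filled points are genes with an adjusted p under 0.05, open points the others, and bars are list medians, which run from -0.21 to 0.09 with MELK siRNA and from -0.28 to 0.16 with UBE2C siRNA.

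Probes named for miRNA genes were mostly too dim to follow. The array carries 569 genes with a miRNA name, of which 447 are hairpin genes in RefSeq. Only 39 could be tested (30 hairpin genes and 9 others, host genes among them), and 9 of the hairpin genes were above background on all 9 arrays. As examples, the mature strands of 3 of these are given from RefSeq (GRCh38.p14), with the seed, bases 2 to 8, in capitals.
hsa-miR-98-5p: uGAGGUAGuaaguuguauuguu
hsa-miR-125b-5p: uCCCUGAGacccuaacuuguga
hsa-miR-185-5p: uGGAGAGAaaggcaguuccuga
The probes are named for the genes and not for the mature strands, and which RNA they read was not tested. Their values are therefore not read as levels of the mature strands shown. With MELK siRNA the log2 difference from control was 0.38 for MIR98, which has the seed of the let-7 family, -0.27 for MIR125B2 and 0.25 for MIR185. With UBE2C siRNA it was 0.21, -0.41 and 0.36 in the same order, and with all 9 arrays 0.63, 0.01 and 0.70. Of the 39 genes 0 were called by limma in any comparison, and their medians were 0.06 with MELK siRNA and 0.16 with UBE2C siRNA.

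The processing and the choice of arrays moved the members unevenly. TSN, a dim probe, ranged from 0.39 to 1.18 on the log2 scale with MELK siRNA over the 21 alternatives, with the lowest value in the authors' background-containing data. AGO2, a bright probe at 8.36 to 14.4 times background, ranged from -0.62 to -0.38. DROSHA ranged from -0.44 to -0.10. With UBE2C siRNA the ranges were 0.12 to 0.91 for TSN, -0.64 to -0.35 for AGO2 and -0.44 to -0.10 for DROSHA. There the ends for TSN and AGO2 came from the arrays used and not from the processing. They were 0.12 and -0.64 without UBE2C siRNA replicate 3, and 0.91 and -0.35 with all 9 arrays.

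**Figure D5:**
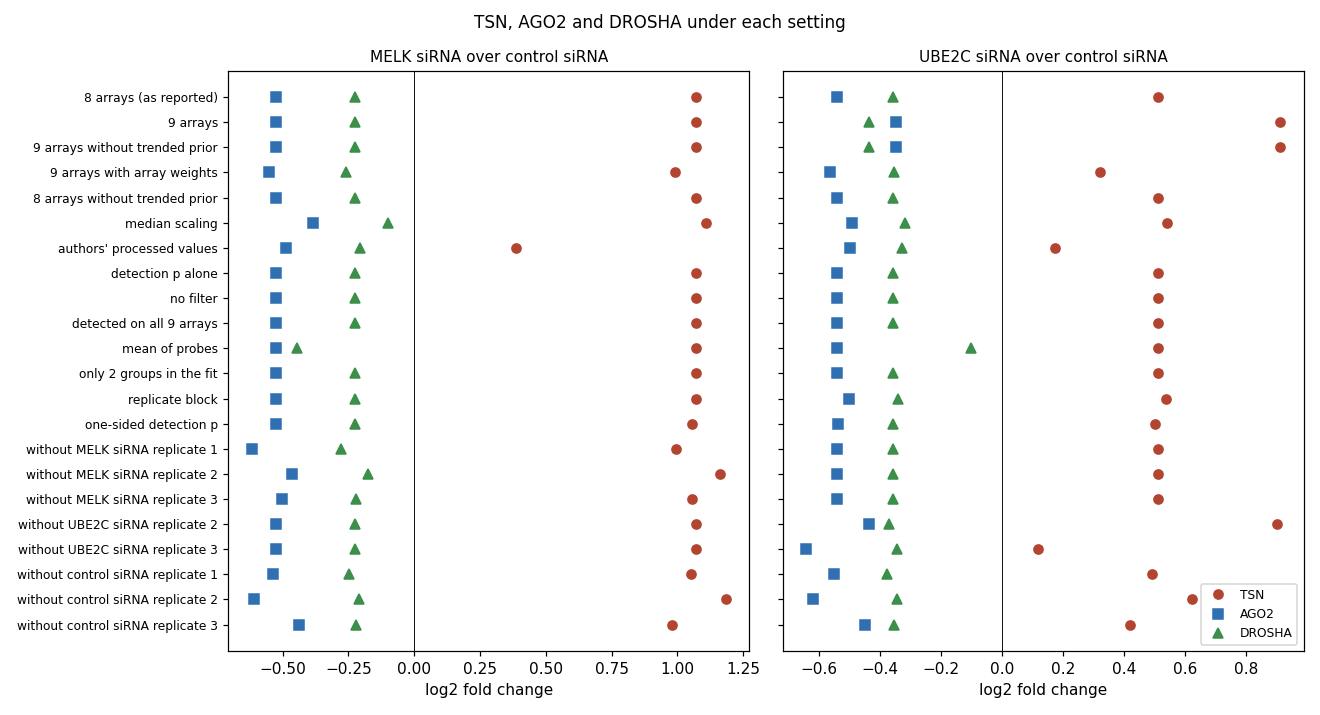
Log2 fold change (x axis) of TSN, AGO2 and DROSHA under the reported setting and each of the 21 alternatives (y axis), for MELK siRNA over control siRNA and UBE2C siRNA over control siRNA. TSN falls to 0.39 and 0.17 in the authors' processed values, and AGO2 lies below 0 in every setting drawn, many of which could not turn its sign.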

How the data were processed

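The samples were grouped by the knockdown in the labels. Per the labels' protocols, total RNA was amplified to biotin-labelled cRNA and hybridized to Illumina bead arrays. The deposited intensities are linear signals per probe, with no background subtraction or scaling visible in the values, and each has a deposited detection p-value, whose computation no source used here states. The authors' processed log2 values have nearly the same quantiles on every array (median 6.78) and keep the background. The submitters' processing notes name lumi without version or role.

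Intensities were background-corrected, quantile-normalized and put on the log2 scale with neqc (limma 3.58.1, R 4.3.3, offset 16). Detection p was small on both sides of background, so probes were required to exceed background with p below 0.01 on at least 3 of 9 arrays (19511 probes). Symbols came from the platform annotation, checked by gene number against RefSeq GRCh38.p14: 30113 probes had 1 gene, 8 several and 17202 none listed. The brightest kept probe represented a gene. All 10 members passed, with 15 of 17 probes. Group means were fitted to 8 arrays with lmFit and eBayes (trended, robust prior) and Benjamini-Hochberg adjustment over 11428 genes, at a threshold of 0.05. The fit was tested on simulated data.

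The members, the lists, the omission of UBE2C siRNA replicate 1 and the trended prior were chosen with earlier results of these data known. Genes named are the members, both siRNA targets, up to 4 called genes per list, direction and comparison, the 5 genes most like TSN, and examples chosen after their values were seen (EIF2AK2, RIGI, IFIH1, STAU2, 3 miRNA genes). Same-numbered arrays were not treated as pairs, because the labels do not say that they share a day and their deviations correlated at -0.06 to 0.18. Pairs of arrays of a group shared at most 14 identical signals.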

Additional observations from a re-analysis of the deposited data

How the results depend on the processing

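The limits are 3, or 2, arrays a group and dim probes: TSN, AGO3 and DICER1 lie close to background. Genes called for MELK siRNA, UBE2C siRNA and between both (630, 510 and 2) became 0, 1 and 1 with all 9 arrays, with or without the trended prior, and 1 each on 8 arrays without it. They became 157, 9 and 1 with median scaling. With detection p alone 175 and 4 were called against control, and with no filter 282 and 211. With only 2 groups in the fit MELK siRNA had 356 calls. UBE2C siRNA had 768 with detection on all arrays and 1434 with array weights, which gave 8 between the knockdowns; the mean of probes gave 1 there. Leaving out 1 array gave 78 to 692, 2 to 755 and 1 to 3.

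Members called (2 for MELK siRNA, 1 for UBE2C siRNA) were 0 and 0 with 9 arrays, without the trended prior and with detection p alone, and 1 and 0 with median scaling. With array weights or detection on all arrays UBE2C siRNA had 2. Leaving out 1 array gave 0 to 2 for each knockdown and 0 to 0 between them. Pathway genes called (5 and 4) were 0 and 0 with 9 arrays and without the trended prior, 10 and 19 with array weights, 1 and 0 with detection p alone, and 2 and 2 with no filter. MELK siRNA had 8 with detection on all arrays, and UBE2C siRNA had 1 with median scaling. Leaving out 1 array gave 1 to 6 and 0 to 10.

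Signs turned with 9 arrays for UBE2C siRNA in TSNAX (-0.60), AGO1 (0.14), AGO3 (0.23) and TARBP2 (0.32), and between the knockdowns in TSNAX (0.36), AGO1 (-0.14), AGO2 (-0.18), AGO3 (-0.17), DICER1 (0.067) and TARBP2 (-0.28). With the mean of probes they turned for UBE2C siRNA in AGO3 (0.060) and TARBP2 (0.22), and between the knockdowns in AGO3 (-0.11), DICER1 (0.043), TARBP2 (-0.16) and DROSHA (-0.34). With array weights AGO3 was at 0.082 for UBE2C siRNA and -0.20 between the knockdowns, and in the authors' values at 0.000305 for UBE2C siRNA. Leaving out 1 array, values for UBE2C siRNA ran over -0.33 to 0.11 in AGO1, -0.18 to 0.17 in AGO3 and -0.39 to 0.11 in DICER1, and between the knockdowns over -0.090 to 0.11 in AGO2, -0.12 to 0.31 in AGO3, -0.49 to 0.0047 in DICER1 and -0.081 to 0.15 in XPO5. Causes were not tested.

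With the replicate number as a block, 337 genes were called for UBE2C siRNA; AGO3 turned to 0.090 for UBE2C siRNA and to -0.038 between the knockdowns, and AGO2 to -0.028. The block changed no member's call, and 5 of 8 arrays correlated best with an array of their own number. The one-sided detection p, added after seeing the data, kept all counts within 1.5 times.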
